A study of Homo sapiens with 8 samples.

Results

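The RNA-seq libraries were of A498 and 786-O, both established cell lines of clear cell renal cell carcinoma (ccRCC). They were examined for 9 genes taken as targets of the transcription factor p53. The genes were named by symbol. They are CDKN1A, MDM2, MDM4, BBC3, BAX, GADD45A, SESN1, TP53I3 and RRM2B, 9 of the 22678 genes to which the deposited RefSeq entries could be assigned. The study knocked down SLINKY, a long non-coding RNA, in both lines. Each line had 4 libraries, 2 of cells given non-targeting control siRNA (NTC) and 1 each of cells given SLINKY siRNA #1 or siRNA #2. All siRNAs were delivered by lipofection at 50 nM, for 16 hours by the labels. The study's methods give the same time for the transfection and place RNA isolation later. The labels describe every siRNA as a pool. The study's methods instead describe the SLINKY siRNAs as independent, each against its own sequence in the first exon, and the NTC as a pool. A498 was grown in DMEM and 786-O in RPMI-1640. The lines differ in p53 status by the rule that set this comparison. As background, A498 is generally regarded as p53 wild type and 786-O as p53 mutant, and the status was not measured here. With 1 line for each status, the cell line, its medium and its p53 status cannot be told apart. Nothing in the labels says that the libraries of a line came from separate cultures, so the p-values measure the spread between these libraries, which may be technical. The knockdown libraries of a line carried different siRNAs, so their spread also holds any difference between the siRNAs.

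p53 is a transcription factor that is held at a low level by its own target MDM2, a ubiquitin ligase, and by the related protein MDM4. When DNA damage or another stress frees it, p53 binds response elements near its target genes and raises their transcription. The targets stop the cell cycle, repair DNA, restrain growth signals or start cell death, and p53 also lowers many cell cycle genes indirectly, through p21 and the DREAM repressor complex.

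A p53 response element consists of 2 copies of a 10-base motif. A window of 2500 bp on either side of the start of the highest RefSeq entry of each gene was searched in the GRCh37 genome, on both strands, for the p53 consensus of 20 bases without a spacer, with at most 2 mismatches and with the C and the G that bound the core of each copy kept. A match was found for 5 of the 9 genes, CDKN1A, MDM2, BAX, GADD45A and RRM2B. Of the 11149 windows of genes with a mean of at least 1 FPKM, which leave out MDM4, 3.79% held a match. The matches of 4 of these genes are shown, among them the gene with the largest level in A498 and the single tested gene that was lower there. That of RRM2B, in an intron and with 1 mismatch, is not printed. Those of CDKN1A, MDM2 and BAX have 2 mismatches. The capitals mark the core of each copy.
CDKN1A: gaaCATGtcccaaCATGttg
MDM2: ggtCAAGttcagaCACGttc
BAX: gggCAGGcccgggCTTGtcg
GADD45A: gaaCATGtctaagCATGctg
The CDKN1A match lies on the plus strand at chr6:36644226-36644245 and overlaps the first bases of entry NM_001220777. It overlaps an exon of 1 GENCODE transcript in part, and no transcript spans the whole match. The MDM2 match lies in an intron on the plus strand at chr12:69202703-69202722, 741 bp downstream of the start of the MDM2 entry. The GADD45A match, also intronic, lies on the plus strand at chr1:68152458-68152477, 1607 bp downstream of the start, and has 1 mismatch. The BAX match lies on the plus strand at chr19:49458470-49458489, 362 bp downstream of the start, and overlaps an exon of 1 GENCODE transcript. As background, the CDKN1A, MDM2 and GADD45A elements are textbook response elements of p53. A match of letters is a description and not a measurement of binding.

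Before the p53 targets, SLINKY itself was read from its GENCODE entry as the check of the knockdown. The A498 NTC libraries held it at 14.6 and 16.1 FPKM, and the knockdown libraries at 1.64 FPKM (siRNA #1) and 3.01 FPKM (siRNA #2), 89.3% and 80.3% below the NTC mean. The 786-O NTC libraries held it at only 1.45 and 1.39 FPKM, and the knockdown libraries at 0.0569 and 0.594 FPKM, 96.0% and 58.2% lower. FPKM scales the fragments of a transcript by its length and by the mapped reads of the library, so levels can be set side by side between genes. The depth was estimated at 25026761 to 64416129 mapped reads per library. Of the markers of kidney tubule and ccRCC cells, 7 of 8 had a mean of at least 1 FPKM, with PAX8 at 39.2 to 48.1 FPKM in the 8 libraries. CA9 was the exception, at 0.293 to 0.559 FPKM in A498 and at most 0.0229 FPKM in 786-O. Endothelial markers were all under 1 FPKM. Of 5 leukocyte markers CD68, a lysosomal protein, was at 138 to 151 FPKM in A498 and 1.70 to 5.20 FPKM in 786-O, while PTPRC and CD3E were listed at 0 in every library. Of 5 fibroblast markers only COL1A1 reached a mean of 1 FPKM.

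Comparison of the lines addressed whether p53 targets are expressed at different levels where p53 status differs. Most of the targets were higher in A498. Of the 8 genes that reached a mean of 1 FPKM, 7 were higher and GADD45A was lower in A498, and 6 were at least 2-fold higher, led by TP53I3 and CDKN1A. MDM4 was below 1 FPKM and was not in this test. The test was limma on log2(FPKM + 0.1) over the 8 libraries, with knockdown as a covariate and Benjamini-Hochberg adjustment over 11367 genes, and all 8 genes passed at an adjusted p of 0.05. The lines differed at most genes, since 39.1% of all genes tested passed as higher and 41.4% as lower in A498, so that passing says little about a p53 target in itself. At least 2-fold higher were 14.5% of the genes tested, against 6 of these 8, with the 2-fold limit chosen after the values were seen. The genes themselves were chosen with earlier results of these data known. The median log2 difference of the 8 genes was 1.75, and that of all genes tested was -0.02. In 7 of the 8 genes every A498 library was above every 786-O library, as it was for 36.6% of all genes tested. Every tested p53 target was at 2.49 FPKM or more in each library, so none passed the filter through A498 alone. In bulk RNA, a difference in level per cell and a difference in the share of cells that express a gene cannot be told apart.

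**Figure D1:**
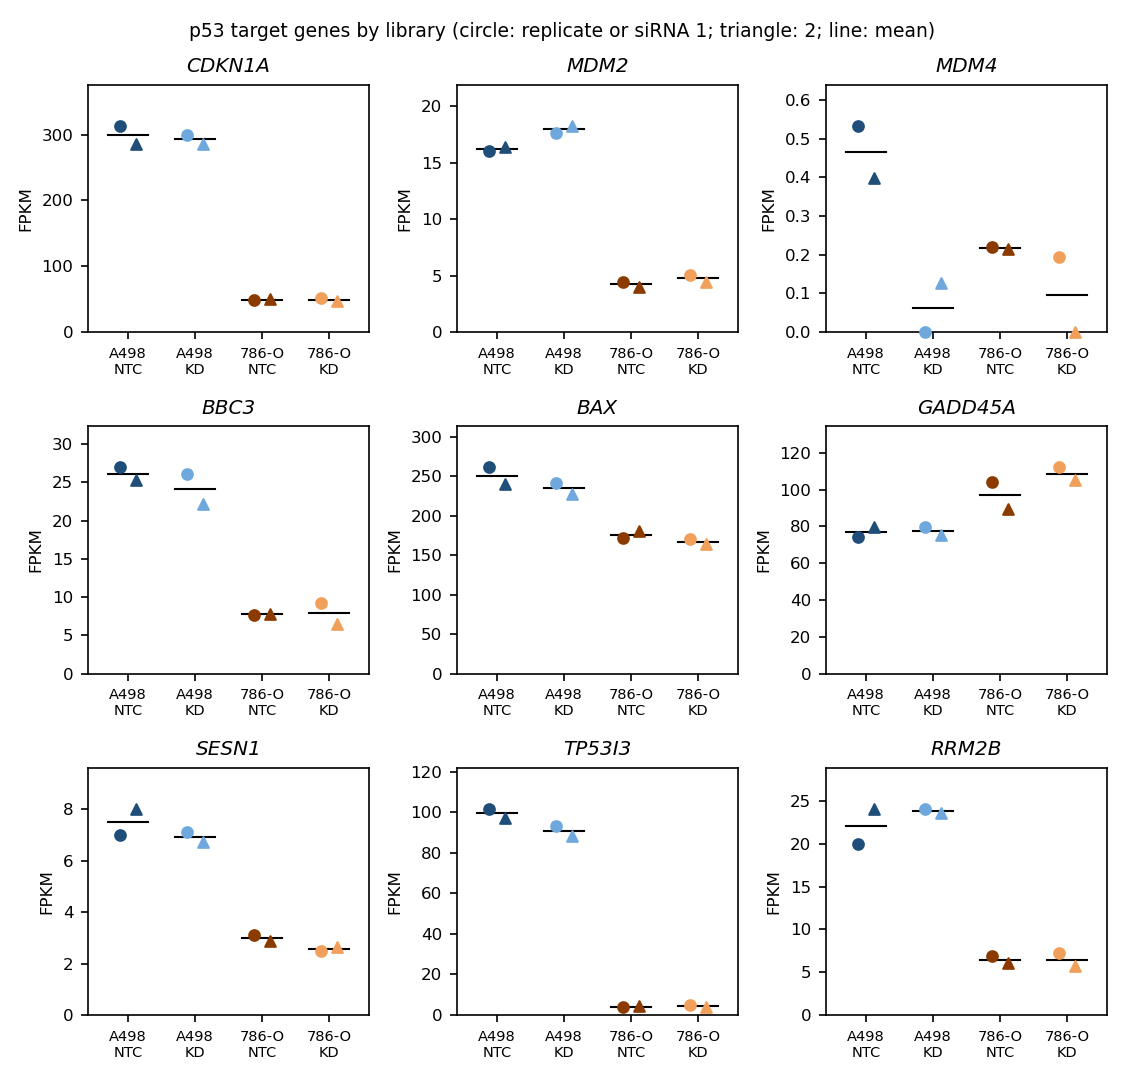
FPKM of the 9 p53 target genes in the 8 libraries, with 1 panel per gene, a linear axis from 0 and the 4 groups of cell line and siRNA along the horizontal axis (KD is SLINKY knockdown). Circles are NTC replicate 1 or siRNA #1, triangles NTC replicate 2 or siRNA #2, and lines are means of 2 libraries. The A498 libraries lie above the 786-O libraries for 7 genes, below them for GADD45A, and overlap them for MDM4.

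CDKN1A encodes p21, the inhibitor of cyclin-dependent kinases that carries much of the p53 cell cycle arrest. In hg19 it lies on chromosome 6 from 36644237 to 36655116, as the deposited entries give it. It was the most abundant of the 9 genes in A498, with 314 and 286 FPKM in the NTC libraries, 299 with siRNA #1 and 287 with siRNA #2. In 786-O the corresponding values were 48.3, 50.0, 51.6 and 46.8 FPKM. The lines did not overlap. The mean was 296 ± 13.01 FPKM in A498 and 49.1 ± 2.09 FPKM in 786-O (SD, n = 4 libraries each), a log2 difference of 2.59 with an SE of 0.046 and limma adjusted p = 4.24e-09. Here and below, each SD is over the NTC and knockdown libraries of a line together. Cufflinks marked the estimate of all 4 CDKN1A entries as failed in the first A498 NTC library, and without that library the log2 difference was 2.56 with limma adjusted p = 1.79e-07. Entries NM_001220777 and NM_000389 carried most of the level in both lines, at a mean of 150 and 134 FPKM in A498 and 24.9 and 20.4 FPKM in 786-O. NM_078467 was at 8.87 FPKM in the second 786-O NTC library and at 0.18 to 0.32 FPKM in the other 786-O libraries, while the summed level of the gene there did not stand apart.

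MDM2, the ubiquitin ligase that p53 induces and that in turn degrades p53, was read from a single entry, NM_002392, on chromosome 12 from 69201971 to 69239320. It was at 16.0 and 16.4 FPKM in the A498 NTC libraries and at 17.6 and 18.3 FPKM with siRNA #1 and #2. In 786-O it was at 4.48 and 3.96 FPKM in the NTC libraries and at 5.04 and 4.46 FPKM with siRNA #1 and #2. The means were 17.1 ± 1.06 FPKM and 4.48 ± 0.444 FPKM (SD, n = 4 each), a log2 difference of 1.91 with an SE of 0.054 and limma adjusted p = 3.69e-08. A GENCODE lncRNA entry, ENSG00000257181.1, lies inside the span of MDM2 and was likewise at 20.5 to 27.2 FPKM in A498 and 4.62 to 5.81 FPKM in 786-O. Cufflinks divides reads between overlapping entries, so how much of that signal belongs to MDM2 was not tested.

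MDM4, which binds p53 and blocks its activation domain, was barely detected. Its 3 named entries on chromosome 1, from 204485507 to 204527248, summed to 0.533 and 0.399 FPKM in the A498 NTC libraries and to 6.0e-05 and 0.126 FPKM after siRNA #1 and #2. For 786-O the sums were 0.219 and 0.216 FPKM with NTC and 0.194 and 4.5e-05 FPKM after siRNA #1 and #2. The lines overlapped, and an exact two-sided permutation test of the 70 arrangements of 4 against 4 libraries gave p = 0.6 for a log2 difference of 0.32. A RefSeq entry of the same span without a current symbol, NR_024171, was high where the named entries were low, at 0.539 FPKM in A498 with siRNA #1 and 0.431 FPKM in 786-O with siRNA #2. With that entry added, the 8 libraries ranged from 0.431 to 0.601 FPKM. The log2 difference between the lines was then 0.15 (exact permutation p = 0.114). This addition was chosen after the values were seen.

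**Figure D2:**
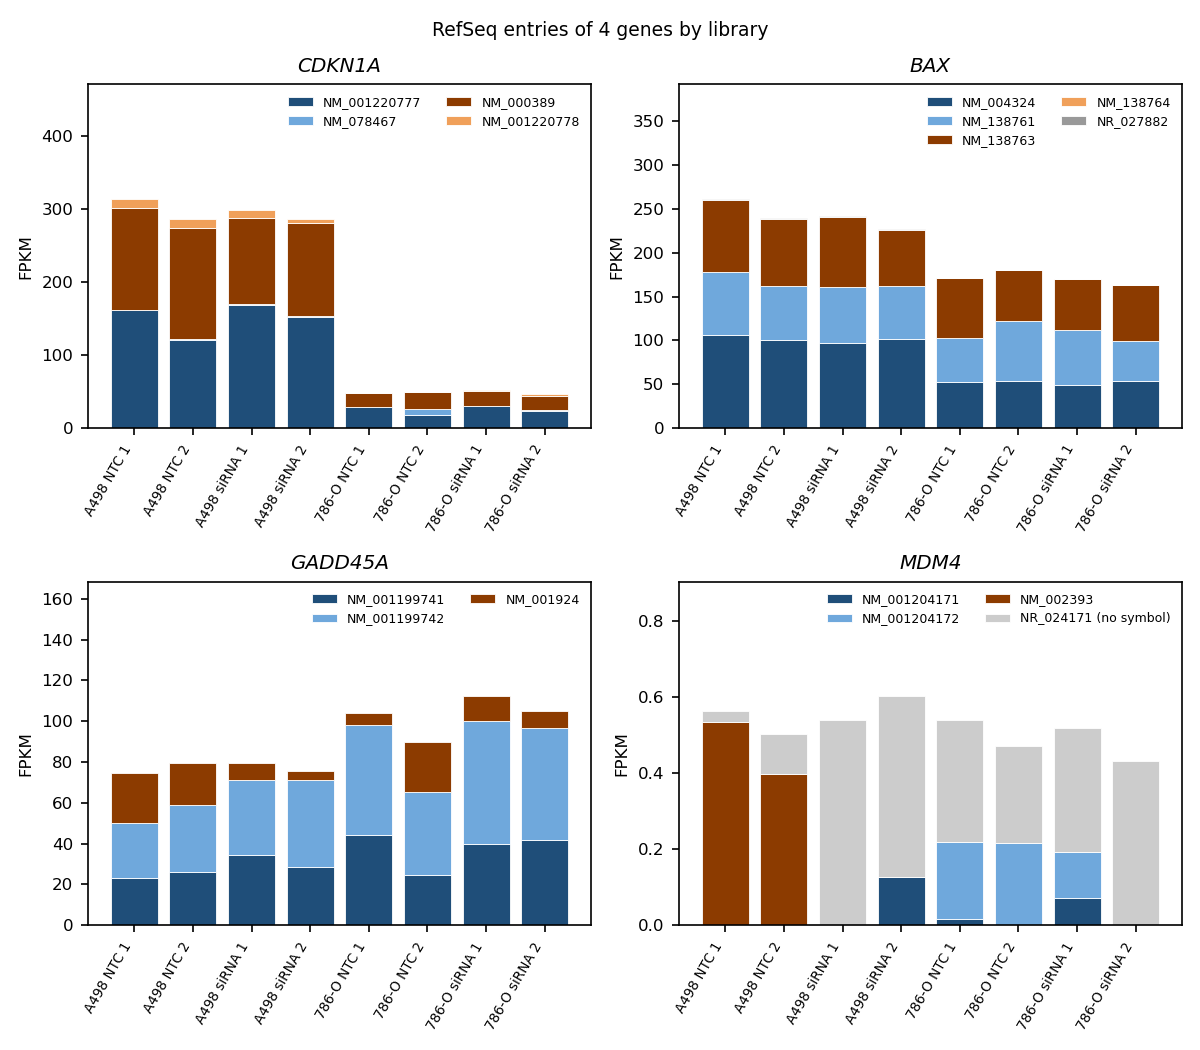
FPKM of each RefSeq entry of CDKN1A, BAX, GADD45A and MDM4, stacked, in the 8 libraries along the horizontal axis. The share of single entries varied between libraries of 1 line while the summed level was steadier, as for GADD45A entry NM_001924 (4.33 to 24.4 FPKM in A498). The grey MDM4 entry without a symbol fills up the columns in which the named entries are near 0.

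Of the genes that start cell death, BBC3 encodes PUMA, a BH3-only protein that neutralises BCL-2 proteins, and BAX encodes the protein that opens the outer mitochondrial membrane. BBC3 lies on chromosome 19 from 47724079 to 47736023. It was at 27.0 and 25.3 FPKM in the A498 NTC libraries and at 26.1 and 22.2 FPKM with siRNA #1 and #2. The 786-O levels were 7.70 and 7.82 FPKM in the NTC libraries and 9.22 and 6.54 FPKM with siRNA #1 and #2. The lines were well separated, at 25.1 ± 2.07 FPKM and 7.82 ± 1.10 FPKM (SD, n = 4 each), and the log2 difference was 1.68 with an SE of 0.11 and limma adjusted p = 2.81e-06. Entry NM_001127242 carried 61.9% to 82.5% of the BBC3 level in the A498 libraries and 64.7% to 79.5% in 786-O. The entries of the microRNA genes MIR3190 and MIR3191 inside BBC3 ranged from 0 to 280 FPKM in A498 and from 0 to 82.7 FPKM in 786-O, and how many of their reads came from BBC3 was not tested.

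BAX, on chromosome 19 from 49458117 to 49465055, was abundant in both lines and differed little. It was at 261 and 240 FPKM in the A498 NTC libraries and at 242 and 227 FPKM with siRNA #1 and #2. For 786-O the values were 171 and 181 FPKM in the NTC libraries and 170 and 164 FPKM with siRNA #1 and #2. All A498 libraries were above all 786-O libraries, with means of 243 ± 14.1 FPKM and 172 ± 7.07 FPKM (SD, n = 4 each) and a log2 difference of 0.50 (SE 0.041, limma adjusted p = 1.15e-05). The entries differed unequally. NM_004324 was at 97.5 to 106 FPKM in A498 and 49.2 to 53.9 FPKM in 786-O, a log2 difference of 0.95 (SE 0.04), whereas NM_138761 differed by 0.19 (SE 0.14), which did not pass limma's test (adjusted p = 0.26). These entries overlap, so their split is an estimate by Cufflinks.

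Of the genes of DNA repair and the stress response, GADD45A encodes a protein of DNA repair and cell cycle arrest. It went the other way. GADD45A, on chromosome 1 from 68150860 to 68154021, was at 74.4 and 79.7 FPKM in the A498 NTC libraries and at 79.4 and 75.4 FPKM with siRNA #1 and #2. In 786-O it was at 104 and 89.7 FPKM in the NTC libraries and at 112 and 105 FPKM with siRNA #1 and #2. Every A498 library was below every 786-O library, with means of 77.2 ± 2.71 FPKM and 103 ± 9.45 FPKM (SD, n = 4 each) and a log2 difference of -0.41 (SE 0.062, limma adjusted p = 4.76e-04). The entries differed unequally. NM_001199742 differed by -0.60 (SE 0.12, limma adjusted p = 0.0034). NM_001199741 differed by -0.40 (SE 0.18, limma adjusted p = 0.093) and NM_001924 by 0.04 (SE 0.55, limma adjusted p = 0.95), and neither passed. Their split is likewise an estimate by Cufflinks. GADD45A and BAX, the tested genes with the smallest differences, were the most abundant of the 9 genes in 786-O.

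RRM2B encodes p53R2, the ribonucleotide reductase subunit that supplies nucleotides for repair. It lies on chromosome 8 from 103216729 to 103251346. It was at 19.9 and 24.1 FPKM in the A498 NTC libraries and at 24.1 and 23.5 FPKM with siRNA #1 and #2. The 786-O values were 6.90 and 6.02 FPKM with NTC and 7.28 and 5.67 FPKM with siRNA #1 and #2. The lines were apart in every library, at 22.9 ± 1.99 FPKM and 6.47 ± 0.747 FPKM (SD, n = 4 each), with a log2 difference of 1.81 (SE 0.097, limma adjusted p = 9.99e-07). Its entry NM_015713 was near 0 in all libraries, and NM_001172478 and NM_001172477 carried the level.

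SESN1, a sestrin that restrains the growth kinase mTORC1 under stress, was the lowest of the tested genes in both lines. It lies on chromosome 6 from 109307640 to 109415708. It was at 7.01 and 8.02 FPKM in the A498 NTC libraries and at 7.11 and 6.73 FPKM with siRNA #1 and #2, and in 786-O at 3.13 and 2.86 FPKM in the NTC libraries and at 2.49 and 2.64 FPKM with siRNA #1 and #2. The lines did not overlap, and the log2 difference was 1.35 with an SE of 0.059 (limma adjusted p = 3.42e-07). Entry NM_001199933 made up 76.1% to 98.8% of the SESN1 level in A498. Entry NM_014454, the one with the longest span, was low in both lines, at 0.08 to 0.58 FPKM in A498 and 0.43 to 0.70 FPKM in 786-O.

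TP53I3, also called PIG3, encodes a quinone oxidoreductase linked to oxidative stress, and it showed the largest difference of the 9 genes. It lies on chromosome 2 from 24300303 to 24308085. It was at 102 and 97.1 FPKM in the A498 NTC libraries and at 93.3 and 88.3 FPKM with siRNA #1 and #2. Its 786-O values were 3.88 and 4.26 FPKM with NTC and 4.74 and 3.82 FPKM with siRNA #1 and #2. The means were 95.1 ± 5.72 FPKM and 4.18 ± 0.426 FPKM (SD, n = 4 each), a log2 difference of 4.48 (SE 0.078, limma adjusted p = 4.01e-09) and a fitted fold of 22.3. In the order of log2 differences from the highest in A498, TP53I3 was at place 252 of 11367 genes, CDKN1A at 632 and MDM2 at 918. All 3 TP53I3 entries were higher in A498, with log2 differences of 4.45, 3.43 and 4.61.

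The genes whose levels over the 8 libraries followed those of CDKN1A and MDM2 most closely were found by the root-mean-square difference of log2 values after each gene's own mean was removed. For CDKN1A these were IFITM3 at 0.054, SRC at 0.061 and ABHD4 at 0.063. For MDM2 they were GBP2 at 0.059, ANKRD10 at 0.069 and PRSS36 at 0.074. PRSS36 had a mean of 1.81 FPKM in A498 and 0.39 FPKM in 786-O, and passed the filter through A498. The 8 libraries fall into 2 lines, and all of these genes had a log2 difference between the lines close to that of the gene they followed. IFITM3, an interferon-induced membrane protein, was at a mean of 1053 FPKM in A498 and 172 FPKM in 786-O, a log2 difference of 2.61, and GBP2, an interferon-induced GTPase, at 7.76 and 1.93 FPKM, a log2 difference of 1.96.

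A further list of p53 targets moved the same way as most of the 9 genes. This list and those below were likewise chosen with earlier results of these data known. Their counts therefore describe these data and are not separate support. Of the 48 genes of this list 47 were tested, 36 were higher in A498, 5 were lower and 6 did not pass. At least 2-fold higher were 21, beside 39.1% higher, 41.4% lower and 14.5% at least 2-fold higher among all genes tested. The median log2 difference was 0.91. SPATA18 and TP53INP1 were below 1 FPKM in every 786-O library and passed the filter through A498. Without them 34 of 45 genes were higher, 19 at least 2-fold, and the median was 0.83. The largest was that of SFN, 14-3-3 sigma, which sequesters cyclin B and CDK1, at 227 ± 18.4 FPKM in A498 and 3.13 ± 0.670 FPKM in 786-O (SD, n = 4 each), a log2 difference of 6.16. GDF15, a secreted stress cytokine, followed at 783 ± 146 FPKM and 16.5 ± 2.09 FPKM, a log2 difference of 5.55. In A498 its mean was 901 FPKM with NTC and 664 FPKM with knockdown, and the SD is over both. The antiviral gene TRIM22 (3.86), SPATA18 of mitochondrial quality control (3.31) and the stress transcription factor ATF3 (2.74) came next in log2 difference. Among those lower in A498 were ALDH4A1 of proline breakdown, with a log2 difference of -2.19, the repressor E2F7 with -0.83, the ferrireductase STEAP3 with -0.66 and EI24 with -0.65. The search for response elements, with at most 2 mismatches, found a match in 16 of 47 windows of this list, beside 3.79% for all genes tested. With at most 1 mismatch it was 5 of 47, beside 0.529%.

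**Figure D3:**
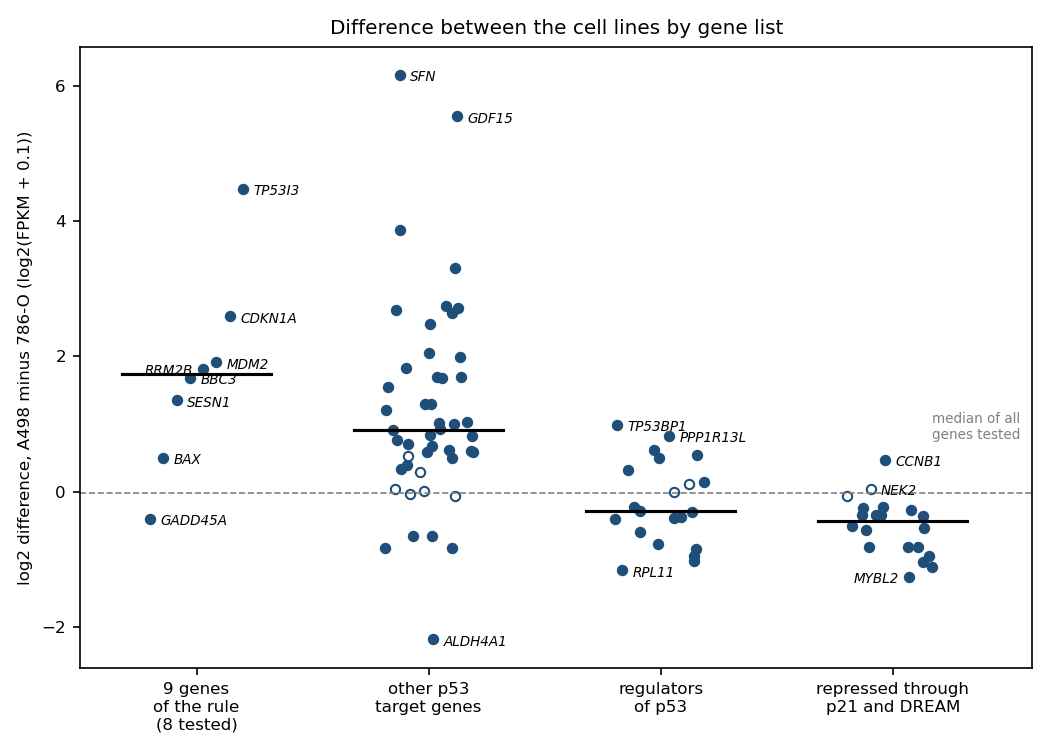
Log2 difference between the lines, A498 minus 786-O, for the genes tested in each of 4 lists, with 1 point per gene placed at random or in order along the horizontal axis. Filled points passed limma's test at an adjusted p of 0.05, open points did not, black lines are list medians and the dashed line is the median of all 11367 genes. The medians were 1.75 for the 8 tested genes of the rule, 0.91 for other p53 targets, -0.29 for regulators of p53 and -0.43 for genes repressed through p21 and DREAM.

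Genes that p53 lowers indirectly, through p21 and the DREAM complex, were mostly lower in A498. All 20 were tested, 17 were lower, CCNB1 was higher and KIF23 and NEK2 did not pass, with a median log2 difference of -0.43. Of all genes tested 41.4% were lower and 39.1% higher. The lowest were the cell cycle transcription factor MYBL2, at 58.0 ± 4.63 FPKM in A498 and 139 ± 7.18 FPKM in 786-O (SD, n = 4 each, log2 difference -1.26), and the phosphatase CDC25A (-1.11). The mitotic activator CDC20 (-1.04), cyclin B2 or CCNB2 (-0.96) and survivin or BIRC5 (-0.82) followed. Cyclin B1, CCNB1, was at 121 FPKM in A498 and 87.8 FPKM in 786-O, a log2 difference of 0.47 (SE 0.042, limma adjusted p = 1.98e-05). All are genes of dividing cells, and the growth rate of the lines was not measured here.

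Regulators of p53 showed smaller differences in both directions. Of 24 genes 21 were tested, 7 were higher and 12 were lower in A498, with a median log2 difference of -0.29, and none was 2-fold higher. Of all genes tested 39.1% were higher and 41.4% lower, so these counts single out no direction for the regulators. The highest were the DNA break protein TP53BP1 with a log2 difference of 0.99, the p53 inhibitor PPP1R13L with 0.82, the checkpoint kinase CHEK2 with 0.61, the histone chaperone DAXX with 0.54 and the corepressor TRIM28 with 0.50. The lowest were RPL11 with -1.17, PRKDC, the catalytic subunit of DNA-PK, with -1.03, the checkpoint kinase ATR with -0.95, RPL5 with -0.85 and CHEK1, the kinase that ATR activates, with -0.77. RPL11 and RPL5 are ribosomal proteins that bind MDM2, and their reads are shared with near-identical processed copies, so their values are uncertain. CDKN2A, whose product ARF inhibits MDM2, was listed at 0 in every library.

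SLINKY knockdown was then compared with NTC. No p53 target passed the test. In A498, 0 of 8 tested genes passed limma's test on the 4 libraries of the line, where 0.176% of all genes tested passed, and the smallest adjusted p of the 8 genes was 0.782. In 786-O, 0 of 8 passed, against 0.141% of all genes, with a smallest adjusted p of 0.910. Over both lines with the line as a covariate, 0 of 8 passed, against 0.0088% of all genes, with a smallest adjusted p of 0.401. At an unadjusted p under 0.05 limma gave 1 of the 8 genes in A498, MDM2, 0 in 786-O and 2 over both lines, MDM2 and SESN1, where 4.3%, 4.21% and 11.5% of all genes tested did so. A knockdown effect that differed between the lines, tested as an interaction, was found in 0 of 8 genes, with a smallest limma adjusted p of 1.00 while 0.141% of all genes tested passed. None of the 8 and 1.93% of all genes had an unadjusted p under 0.05 in that test.

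**Figure D4:**
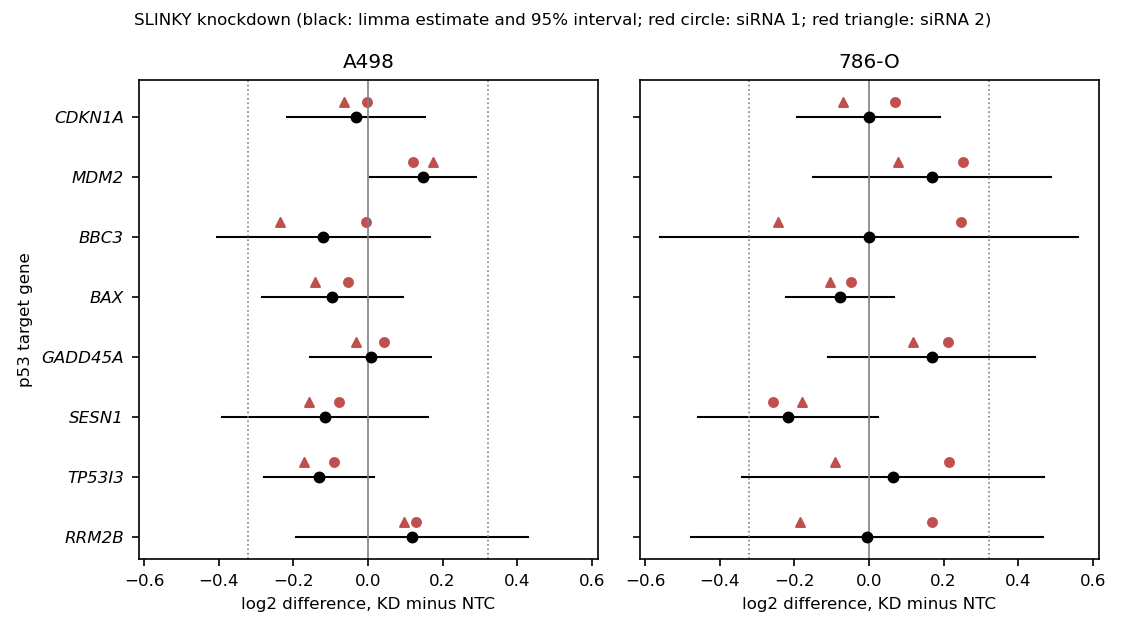
Log2 difference between SLINKY knockdown and NTC for the 8 tested p53 targets, A498 on the left and 786-O on the right. Black points and lines are limma estimates with 95% intervals, red circles and triangles are the libraries of siRNA #1 and siRNA #2 against the NTC mean, and dotted lines mark the study's fold threshold, 0.32 on the log2 scale in either direction. No single siRNA lies beyond the dotted lines, and the interval of MDM2 in A498 is the only one that does not reach 0.

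The intervals give the sizes that these libraries leave possible. For CDKN1A the knockdown difference on the log2 scale was -0.03 in A498 with a 95% interval from -0.22 to 0.15, and 7.6e-05 in 786-O with an interval from -0.19 to 0.19. For MDM2 it was 0.15 in A498 (0.01 to 0.29) and 0.17 in 786-O (-0.15 to 0.49). In A498 both knockdown libraries were above both NTC libraries for MDM2, and in 786-O they overlapped. Over both lines MDM2 was 0.16 higher (0.03 to 0.28, limma adjusted p = 0.401), a fitted fold of 1.12.

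SESN1 had the largest estimate in the other direction, -0.22 in 786-O (-0.46 to 0.03) and -0.12 in A498 (-0.39 to 0.16), and -0.17 over both lines (-0.30 to -0.03, limma adjusted p = 0.410). Both 786-O knockdown libraries were below both NTC libraries for SESN1 and BAX and above them for GADD45A. TP53I3 was below in both A498 knockdown libraries, with a difference of -0.13 (-0.28 to 0.02), and overlapped in 786-O, at 0.06 (-0.34 to 0.47). BBC3 had the widest interval, from -0.56 to 0.56 in 786-O, where siRNA #1 was above and siRNA #2 below both NTC libraries. RRM2B overlapped in both lines, at 0.12 (-0.19 to 0.43) in A498 and -0.01 (-0.48 to 0.47) in 786-O. For BAX the differences were -0.10 (-0.28 to 0.09) in A498 and -0.08 (-0.22 to 0.07) in 786-O, and for GADD45A 0.01 (-0.16 to 0.17) and 0.17 (-0.11 to 0.45).

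MDM4, outside the fit, was below both NTC libraries with either siRNA in both lines when its named entries were summed, a log2 difference of -1.40 over both lines. An exact two-sided permutation test within the lines gave p = 0.0556, the smallest that its 36 arrangements allow. With the entry without a symbol added, the difference was 0.0046 (exact permutation p = 1), since that entry was higher in every knockdown library than in the NTC libraries of its line.

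For single siRNAs, with 1 library each and no test, none of the 8 genes passed the study's fold threshold, 0.32 on the log2 scale, against the NTC mean of its line. Of all genes tested, 5.57% passed with siRNA #1 and 7.41% with siRNA #2 in A498, and 7.54% and 5.77% in 786-O. The second NTC library passed the same threshold against the first for 6.31% of genes in A498 and 6.12% in 786-O. Set in the same way against a single NTC library, the siRNA libraries passed for 5.64% to 12.1% of genes in A498 and 6.70% to 9.11% in 786-O. Each siRNA fold uses the same NTC libraries of its line. The log2 folds of the 8 genes ran from -0.09 to 0.13 with siRNA #1 and from -0.24 to 0.17 with siRNA #2 in A498, and from -0.26 to 0.25 and from -0.24 to 0.12 in 786-O. Of the 4 groups of cell line and siRNA, A498 NTC and A498 knockdown were the neighbours at 1 end of the order and 786-O NTC and 786-O knockdown at the other for each tested gene, and within a line no pair of neighbours passed limma's adjusted test, which does not show that they were alike. MDM2 in A498 came closest, with an unadjusted limma p of 0.0446.

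The other lists did not pass in the knockdown either. None of the 47 other p53 targets, 21 regulators or 20 genes repressed through p21 and DREAM passed within a line, over both lines or in the interaction. At an unadjusted p under 0.05 limma gave 2, 0 and 1 of them in A498 and 3, 0 and 0 in 786-O, 8, 0 and 1 over both lines and 2, 0 and 0 in the interaction, beside 4.3%, 4.21%, 11.5% and 1.93% of all genes tested. Those in A498 were ATF3, GDF15 and MYBL2, those in 786-O FBXW7, SUSD6 and DUSP5, and those in the interaction PLK3 and DUSP5. GDF15 was at 954 and 849 FPKM in the A498 NTC libraries and at 696 and 633 FPKM with siRNA #1 and #2, a log2 difference of -0.44. In 786-O it was at 16.1 and 17.4 FPKM with NTC and at 18.8 and 13.9 FPKM with siRNA #1 and #2, a log2 difference of -0.04, and its interaction did not pass limma's test (adjusted p = 1.00). These genes were named after their values were seen. The median log2 difference over both lines was -0.02 for the 8 genes, 0.04 for other p53 targets, 0.03 for regulators and -0.01 for genes repressed through p21 and DREAM, beside 0.01 for all genes tested.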

How the data were processed

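Single-end 36 bp RNA-seq reads of 8 libraries were aligned by the authors to hg19, and the deposited FPKM values were computed per library on its own. The submitters' processing notes name TopHat2 version 2.0.0 and Cufflinks version 2.0.2. No counts were used and no scaling between libraries is stated. Each table held 75378 entries, 43150 of them RefSeq transcripts, of which 96.6% received a current symbol from a RefSeq table used for names only. FPKM values were summed per symbol. The transcript of p53 itself was not analysed here.

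Genes with a mean of at least 1 FPKM were tested on log2(FPKM + 0.1) with limma (version 3.58.1, run in R 4.3.3) with a variance trend. The added 0.1 FPKM understates the differences of low genes. The siRNAs served as the replicates of the knockdown. The members and lists were chosen with earlier results of these data known. All 9 members were named in every comparison. From each other list the 5 genes with the largest difference in each direction among those past the test were named between the lines, and likewise 3 for the knockdown, where none passed. A gene of the list of other p53 targets that the rule names is not reported here. For CDKN1A and MDM2 the 3 most alike genes were named. Intervals are 95% intervals from limma.

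Depth was estimated from olfactory receptor genes with a single read, with an assumed fragment length of 200 bp. The fits were checked on generated data. Alternatives were other pseudocounts, no filter, median-ratio scaling, the highest entry per symbol, removal of genes spanning under 200 bp, a block for the replicate number, NTC libraries only, a fit of 4 groups and each library left out. Python 3.11.15 with numpy 2.4.6, pandas 2.3.3, scipy 1.17.1 and matplotlib 3.10.9 was used outside R.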

Additional observations from a re-analysis of the deposited data

How the results depend on the processing

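In the comparison of the lines, all 128 recomputed values of the 8 tested p53 targets kept their direction and passed limma's test (adjusted p from 5.72e-12 to 0.0420). CDKN1A ranged from 2.56 to 2.62, TP53I3 from 4.22 to 4.58, BAX from 0.47 to 0.62 and GADD45A from -0.60 to -0.33 on the log2 scale.

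In the knockdown no p53 target passed under any alternative run. Of all genes, 20 passed in A498, 16 in 786-O, 1 over both lines and 16 in the interaction. In A498 the number was 11 with a pseudocount of 1 FPKM, 0 without a filter, 3 without genes spanning under 200 bp, 0 with the replicate block, 13 in the fit of 4 groups and 48 to 61 with a library left out. In 786-O it was 5 without a filter, 0 without short genes, 4 with the replicate block, 9 in the fit of 4 groups and 29 to 41 with a library left out. Over both lines it was 0 without short genes and 1 to 3 with a library left out. In the interaction it was 7 with a pseudocount of 0.01 FPKM, 27 without a filter, 1 without short genes, 10 with the replicate block and 28 to 38 with a library left out. The cause was not tested. With a library left out, a fit within a line had an arm of 1 library, which was taken to vary like the other arm with limma's spread shared over genes. Against the second 786-O NTC library alone, siRNA #1 put 2 p53 targets, MDM2 and GADD45A, past the fold threshold.

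Knockdown values near 0 changed sign. With the highest entry per symbol CDKN1A was 0.027 and BBC3 0.021 in A498, CDKN1A 0.060, BBC3 0.10 and TP53I3 0.020 over both lines, and BAX 0.049 and GADD45A 0.12 in the interaction. The same choice moved GADD45A to 0.42 in A498 and 0.36 over both lines, and RRM2B to 0.35 in A498 and 0.48 in the interaction, none past limma's test (adjusted p from 0.481 to 0.999). With median-ratio scaling GADD45A was -0.0098 in A498, and CDKN1A was -0.0078 and BBC3 -0.0061 in 786-O. With a pseudocount of 1 FPKM MDM2 was 0.00016 in the interaction. With a library left out, the ranges in A498 were -0.099 to 0.034 for CDKN1A, -0.042 to 0.056 for GADD45A and -0.016 to 0.25 for RRM2B. In 786-O they were -0.070 to 0.071 for CDKN1A, -0.24 to 0.25 for BBC3, -0.089 to 0.22 for TP53I3 and -0.18 to 0.17 for RRM2B. Over both lines they were -0.048 to 0.014 for CDKN1A, -0.17 to 0.027 for BBC3, -0.11 to 0.0080 for TP53I3 and -0.0095 to 0.14 for RRM2B. In the interaction they were -0.10 to 0.038 for CDKN1A, -0.11 to 0.067 for MDM2, -0.37 to 0.12 for BBC3, -0.081 to 0.043 for BAX and -0.053 to 0.30 for RRM2B.

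Over all genes tested, deviations of libraries with the same replicate number correlated at -0.0048 in A498 and 0.0064 in 786-O. In the knockdown these deviations are between different siRNAs. The correlation therefore cannot tell whether the replicate numbers share more than a label. The replicate block changed no call of a p53 target, with 0 of 8 past the test in each knockdown comparison. No statement on a change of MDM4 rests on these levels.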
